A study of Gallus gallus with 24 samples.

Results

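The genes of blood coagulation, fibrinolysis and their serpin inhibitors, with the complement components and annexins that share their symbol patterns, were examined in the abdominal fat of fat-line (FL) and lean-line (LL) chickens. Members were taken by gene symbol: the coagulation factors and fibrinogen chains, the protease-activated receptors (F2R family), the serpins other than the collagen chaperone SERPINH1, plasminogen and its activators, the protein C and TFPI families, kininogen and the kallikreins, VWF, A2M, CPB2, the annexins and symbols made of C, a digit and further letters. Of 6428 named genes on the array, 48 matched, carried by 82 spots, and all 48 were measured on every array. They were grouped by role into 11 coagulation and fibrin genes, 4 anticoagulants, 3 genes of fibrinolysis, 2 thrombin and protease receptors, 3 kinin and contact genes, 3 serpins with other targets, 16 complement genes and 6 annexins.

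Coagulation is a cascade of plasma proteases that ends in thrombin, which cuts fibrinogen into fibrin. Serpins and protein C hold the cascade in check, and plasmin dissolves the clot. Most of these plasma proteins are made by hepatocytes, whereas VWF comes mainly from endothelium and the A chain of factor XIII from macrophages and related cells.

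The birds were male chickens of 2 lines selected in opposite directions on abdominal fat weight. Abdominal fat was taken at 1, 3, 5, 7, 9 or 11 wk of age, from FL birds and LL birds raised alike. Each of 24 spotted cDNA arrays held 1 FL and 1 LL bird of the same age, 4 arrays per age, with FL labelled with Alexa 647 on 2 arrays of each age and LL on the other 2. Each array gave 1 log2 ratio per spot, so the values are differences between 2 birds and hold no expression levels. The tissue could therefore not be checked against its defining markers, and in bulk fat a lower number of cells of a type and less RNA per cell cannot be told apart.

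The sources used here do not state which line was the numerator. The titles name FL first, so a value above 0 is read as likely higher in FL, and every sign turns if LL was on top. Whether ratios of the dye-swapped arrays were turned to one direction before deposit is not stated either. Arrays of the same dye orientation correlated with a mean r of 0.213 over all 19200 spots, control clones included, and arrays of opposite orientation with a mean r of -0.17. Each result is therefore given on the ratios as deposited, and the component that changes sign with the dyes is given separately. On arrays with FL in 647, FL over LL and 647 over 555 are the same ratio, so both readings give those arrays one direction. The publication on these lines, as known from outside the files used here, reports hemostatic genes as more abundant in LL. As deposited, 36 of the 48 fitted means were above 0, read as higher in FL, against 52.55% of all features, and none was called. The 48 include 16 complement genes and 6 annexins, and of the 11 coagulation and fibrin genes 8 were above 0. Without 1 wk replicates 2 and 4 and 5 wk replicate 1, chosen after seeing the data, 25 of the 48 were above 0. These uncalled signs therefore cannot decide for or against the published direction. If the ratios are 647 over 555, 10 of the 48 (20.8%) were called, 4 higher in FL and 6 lower, against 37.9% of all features.

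No member passed the test for a line effect averaged over the 6 ages (limma, Benjamini-Hochberg adjusted p under 0.05 over 15027 features). The share called among all features was 0.0133%. At an unadjusted p under 0.05, 7 of the 48 were past the threshold, against 10.3% of all features. F13A1, SERPINE2, ANXA5, SERPIND1, ANXA6 and C1QB were the 6 above 0, against 5.5% of all features, and VWF was the 1 below 0, against 4.75%. The 48 genes had a median of 0.02, with 36 above 0, and all features had a median of 0.0029, with 7896 of 15027 above 0. Ratios of hepatocyte markers were mostly above 0 on 1 wk replicate 2 and 5 wk replicate 1 and mostly below 0 on 1 wk replicate 4. Without these 3, an alternative chosen after seeing the data, 25 of the 48 were above 0 and their median was 0.0029. Leaving out 1 array moved the fitted mean of 42 of the 48 by over 1.5 times or turned its sign, and none of the 48 was called without any 1 array. Means near 0 meet this rule with small changes, and the share of all features that meet it was not counted.

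**Figure D1:**
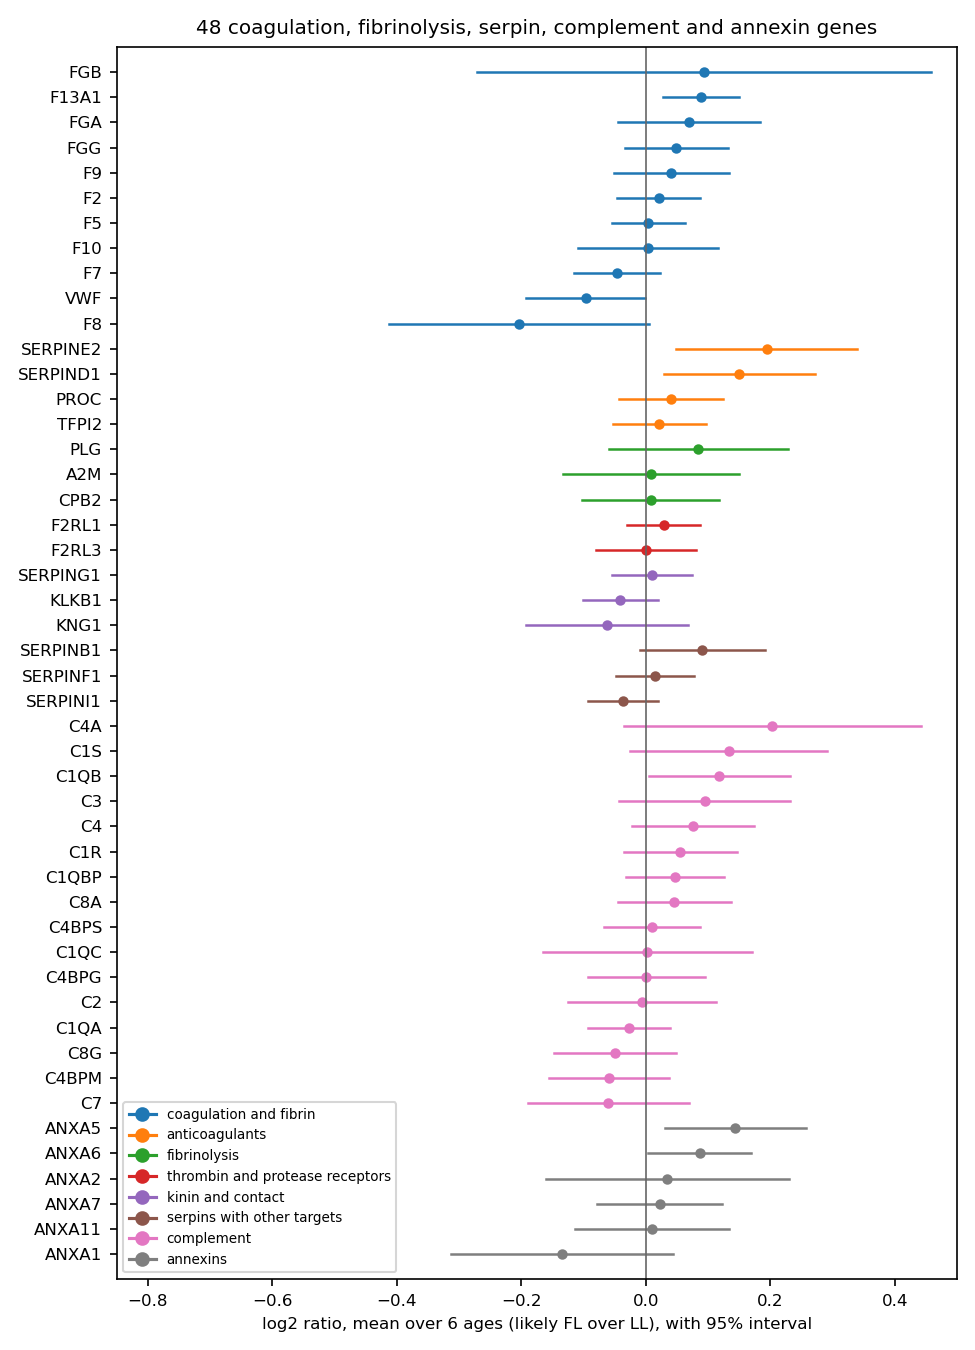
Fitted log2 ratio of each of the 48 genes averaged over 6 ages (points, likely FL over LL) with its 95% interval (lines), grouped and coloured by role. Fitted values lie between -0.20 for F8 and 0.20 for C4A, and FGB has the widest interval among the coagulation genes. The value of C4A was 0.099 without 9 wk replicate 1.

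Among the genes of fibrin formation, F13A1, the transglutaminase chain that crosslinks fibrin, had the smallest p of all 48. Its ratio ran from -0.27 to 0.39 with a median of 0.09, and it was above 0 on 19 of 24 arrays. The fitted mean was 0.09 (SE 0.0295), with an adjusted p of 0.251 in limma. On all 4 arrays at 9 wk it was above 0, at 0.20, 0.07, 0.17 and 0.18. The fitted value at that age was 0.17 (SE 0.0751), with an adjusted p of 0.746 in limma, and was 0.11 without replicate 1.

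F8, the cofactor of factor IXa, and VWF, its plasma carrier and the tether of thrombocytes to the vessel wall, were the lowest of the group. F8 ranged from -2.24 to 0.65 with a median of -0.21, and its fitted mean was -0.20 (SE 0.1, adjusted p = 0.503 in limma). VWF ranged from -1.02 to 0.59 with a median of -0.03 and was above 0 on 9 of 24 arrays. Its fitted mean was -0.10 (SE 0.046), with an adjusted p of 0.482 in limma, and was -0.061 without 1 wk replicate 1. The lowest arrays of both genes had FL in 647.

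Both fibrinogen chains beside FGB gave ratios close to 0 on most arrays. FGA ranged from -0.19 to 1.29 with a median of 0.03, and FGG from -0.29 to 0.46 with a median of 0.06. FGB, the chain with the largest excursions, ran from -1.16 to 4.18 with a median of 0.07. The 3 chains are neighbours in the RefSeq gene order of the GRCg7b assembly.

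Among the proteases of the cascade, prothrombin, F2, ranged from -0.41 to 0.59 with a median of 0.03, and F10, the protease that activates it, from -0.57 to 0.61 with a median of 0.08. F9 ranged from -0.32 to 0.61 (median 0.04) and F7, which starts the cascade with tissue factor, from -0.53 to 0.32 (median -0.04). F7 was above 0 on 6 of 24 arrays, the fewest of the 48. The cofactor F5 ranged from -0.29 to 0.17 with a median of 0.0043. Fitted means of F2, F5, F7, F9 and F10 lay between -0.05 and 0.04, and none passed the test.

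The 4 genes grouped as anticoagulants all had fitted means above 0, as did 36 of the 48 members and 52.55% of all features. None of the 4 was called. SERPINE2, protease nexin 1, which inhibits thrombin and plasminogen activators, ranged from -0.28 to 0.94 with a median of 0.16 and was above 0 on 17 of 24 arrays. It had a fitted mean of 0.19 (SE 0.0702, adjusted p = 0.293 in limma). SERPIND1, heparin cofactor II, a thrombin inhibitor, ranged from -0.53 to 1.24 with a median of 0.05. Its fitted mean was 0.15 (SE 0.0584, adjusted p = 0.343 in limma), and without 7 wk replicate 2 it was 0.088. PROC, the zymogen of the protease that cleaves factors Va and VIIIa, ranged from -0.81 to 0.66 (median 0.02). TFPI2, a Kunitz-type protease inhibitor, ranged from -0.33 to 0.42 (median 0.02). The fitted means of PROC and TFPI2 were 0.04 and 0.02, and as low as 0.012 and 0.0011 with 1 array left out.

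In fibrinolysis, PLG, the precursor of plasmin, ranged from -0.45 to 1.73 with a median of 0.02. CPB2, the carboxypeptidase that slows fibrin breakdown, ranged from -0.37 to 0.72 (median -0.03), and A2M, a broad protease trap, from -0.43 to 1.58 (median -0.04). The fitted means were 0.08, 0.0081 and 0.0084. None passed the test, and the highest array of both PLG and A2M was 1 wk replicate 2.

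Both receptors cleaved by serine proteases had fitted means near 0. F2RL1, protease-activated receptor 2, ranged from -0.29 to 0.35 with a median of 0.03. At 9 wk its 4 arrays gave 0.35, -0.02, 0.21 and -0.0018, both high values coming from arrays with LL in 647. Its fitted 0.16 at that age was 0.078 without replicate 1. F2RL3, protease-activated receptor 4, ranged from -0.35 to 0.44 and had a fitted mean of 0.00042.

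Of the kinin and contact genes, KNG1, the precursor of bradykinin, had the widest range, from -1.12 to 1.06. KLKB1, the kallikrein that releases bradykinin, ranged from -0.29 to 0.22 (median -0.03), and SERPING1, the inhibitor of C1 and kallikrein, from -0.28 to 0.35 (median -0.0047). Their fitted means were -0.06, -0.04 and 0.0097, and none passed the test. The serpins with other targets showed equally small means. SERPINB1, an inhibitor of neutrophil proteases, had 0.09, SERPINF1, the antiangiogenic factor PEDF, had 0.01 and SERPINI1, neuroserpin, had -0.04. Over the 24 arrays SERPINB1 ranged from -0.32 to 0.79, SERPINF1 from -0.16 to 0.24 and SERPINI1 from -0.30 to 0.15. The SERPINF1 range is that of an average over 6 spots, and its single spots ran wider. The widest was spot 4, from -1.75 to 1.96, and the narrowest spot 3, from -0.28 to 0.48.

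Among the 16 complement genes, 11 had fitted means above 0, against 52.55% of all features. Their median was 0.03, and none was called. C1QB, a chain of the recognition unit C1q, had a mean of 0.12 (SE 0.0546, adjusted p = 0.46 in limma) and ranged from -0.42 to 0.67. Without 7 wk replicate 2 the mean was 0.066. The other C1q chains, encoded beside it, gave -0.03 for C1QA (range -0.66 to 0.29) and 0.0028 for C1QC (range -0.67 to 0.94). C1S, a protease of the C1 complex, ranged from -0.37 to 0.85 and was above 0 on 17 arrays, and C1R, which activates it, ranged from -0.44 to 0.34. C4A had the highest fitted mean of all 48, at 0.20 (SE 0.115), which was 0.099 without 9 wk replicate 1 and 0.13 without 11 wk replicate 2. C4 had 0.08, with ratios from -0.75 to 0.60 and a median of 0.04, and its mean was 0.011 without 7 wk replicate 2 and 0.022 without 7 wk replicate 4. Whether the C4 and C4A clones also bind each other's transcripts was not tested. C3, the central component, ranged from -0.77 to 1.25, and the lytic components C7, C8A and C8G had fitted means of -0.06, 0.05 and -0.05. C7 ranged from -1.10 to 0.77 (median -0.0089), C8A from -0.29 to 0.88 (median 0.03) and C8G from -1.05 to 0.52 (median -0.02). C1QBP, a protein that binds the globular heads of C1q, ranged from -0.48 to 0.54 with a median of 0.07. C2, C1QBP, C4BPG, C4BPM and C4BPS had fitted means between -0.06 and 0.05.

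The annexins, proteins that bind acidic phospholipids with calcium, had 5 of 6 fitted means above 0, against 52.55% of all features. ANXA5, which shields the phosphatidylserine on which clotting factors assemble, ranged from -0.77 to 0.81 with a median of 0.15. It had a mean of 0.14 (SE 0.0547, adjusted p = 0.327 in limma) and was above 0 on 18 of 24 arrays. ANXA6 was likewise above 0 on 18 arrays, with a mean of 0.09 (SE 0.0397, adjusted p = 0.459 in limma) and a range from -0.31 to 0.50. Without 7 wk replicate 4 the mean of ANXA6 was 0.057. Its 2 spots split by the dyes in opposite directions. Spot 1 averaged 0.27 with FL in 647 and -0.18 with LL in 647, and spot 2 averaged -0.08 and 0.32. Spot 1 was above 0 on 11 of 24 arrays and spot 2 on 19. ANXA1, a mediator of inflammation resolution, was the exception at -0.13 (SE 0.0858), with ratios from -1.43 to 0.83. Its mean was -0.023 without 1 wk replicate 1, -0.060 without 1 wk replicate 3 and -0.21 without 1 wk replicate 2. ANXA2, a cell-surface receptor for plasminogen, ranged from -1.96 to 0.84 and had a mean of 0.03, and ANXA7 and ANXA11 had means of 0.02 and 0.01. The ratios of ANXA11 ran from -0.94 to 0.49 with a median of 0.07.

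The widest single ratios of several plasma protein genes fell on a few arrays. Others had theirs elsewhere, such as KNG1 with -1.12 on 3 wk replicate 3 and C8G with -1.05 on 7 wk replicate 3. On 1 wk replicate 2, with FL in 647, FGB had a ratio of 4.18, an 18.1-fold difference between the 2 birds. PLG reached 1.73 on that array, A2M 1.58, FGA 1.29, C3 1.25 and SERPIND1 1.24. These 6 were the only members above 1 on the log2 scale on that array, as were 186 of 15027 features. All 11 coagulation and fibrin genes were above 0 there, the lowest being F5 at 0.0049. Above 0 were also 34 of the 48 members and 7595 of 15027 features.

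On 5 wk replicate 1, with LL in 647, FGB had 2.04, C3 0.79, PLG 0.65, SERPIND1 0.62, FGA 0.50 and A2M 0.40. The opposite direction appeared on 1 wk replicate 4, with FL in 647, where FGB had -1.16, C3 -0.77, A2M -0.43 and PLG -0.29. FGB was also low on 3 wk replicates 2 and 4, at -0.97 and -1.04. On the remaining 19 arrays its ratio did not go beyond the span from -0.49 to 0.29.

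Of the 48 members, 10 had their highest ratio of all 24 arrays on 1 wk replicate 2, an array singled out after the values of FGB were seen, and 3.94% of all features did. Not every plasma protein gene was high there, and C8G had -0.43 and KNG1 -0.09. On 5 wk replicate 1, 3 members had their highest ratio, against 7.62% of all features, and on 1 wk replicate 4, 4 had their lowest, against 6.3%.

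Markers of hepatocytes that are no members were also unequal on these arrays. Of 32 listed, 26 were measured, and 16 of the 26 had their highest ratio on 1 wk replicate 2. Their median ratio was 0.82 on 1 wk replicate 2, where 24 of 26 were above 0, 0.42 on 5 wk replicate 1, where 21 were, and -0.56 on 1 wk replicate 4, where 2 were. On the other 21 arrays the median stayed between -0.07 and 0.11, while the median of the 48 members ran from -0.13 to 0.09. Single markers were still unequal on some of these. They ran from -1.9 to 0.83 on 3 wk replicate 2 and from -1.85 to 0.21 on 3 wk replicate 4. The lowest were RBP4 and CYP2C18, while the marker medians there were -0.07 and -0.03 and ALB had -0.04 and -0.16. In the fit at 3 wk, 1 of the 26 markers was called, against 1.22% of all features. The lowest of the listed genes at that age was LECT2, at -0.96 (SE 0.198). Whether RBP4, CYP2C18 and LECT2 transcripts come from hepatocytes in these fat samples was not tested. On 7 wk replicate 1, the array with the lowest weight (0.407) and an all-feature median of -0.06, PLG had -0.45 and SERPIND1 -0.53. These were their lowest ratios, as were those of F2, F5, F7, F13A1, FGA, PROC, C1QA, C8A and SERPINI1 on this array. The share of all features with their lowest ratio there was not counted. Above 0 on this array were 17 of the 48 members and 6282 of 15027 features. Its 2 PLG spots had -1.07 and 0.17. The marker median there was 0.07, with single markers from -1.10 to 0.76. The ratios do not show whether these markers were near 0 in either bird, and the part that liver transcripts in the fat samples play in the plasma protein ratios was not tested.

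**Figure D2:**
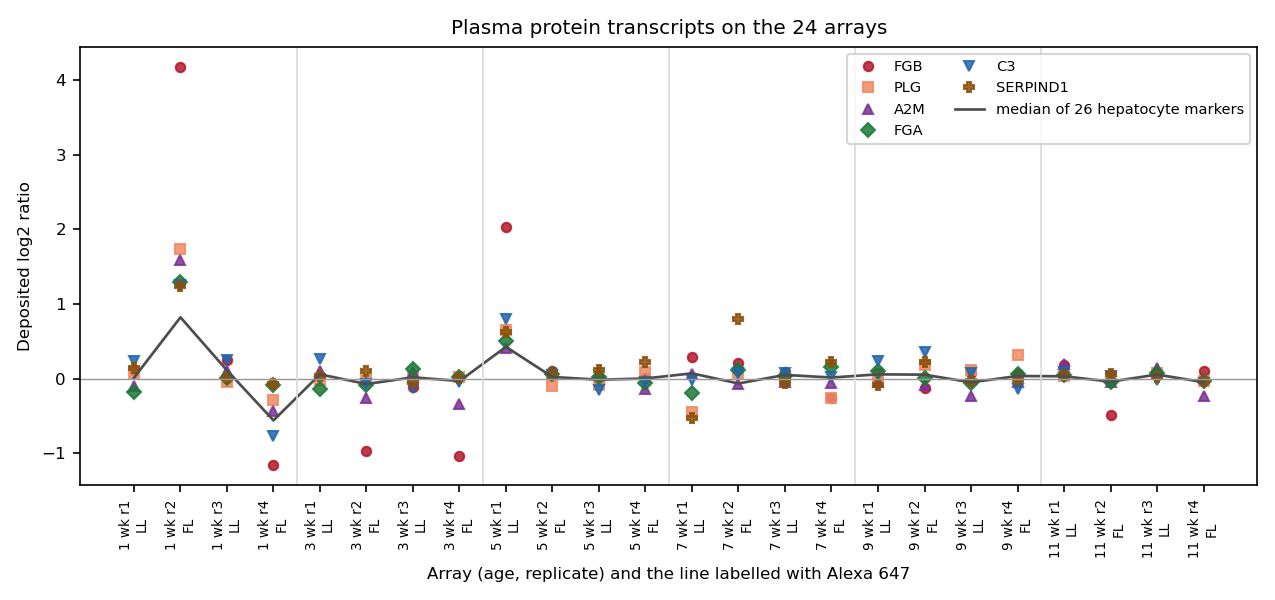
Deposited log2 ratio of 6 plasma protein genes (symbols) and the median of 26 hepatocyte markers (line) on each of 24 arrays, with the line labelled with Alexa 647 under each array. FGB reached 4.18 at 1 wk (replicate 2) and 2.04 at 5 wk (replicate 1), and had -1.16 on 1 wk replicate 4, where the marker median was -0.56.

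Leaving out arrays chosen for these ratios, after the values were seen, moved the fitted values. FGB had 0.73 at 1 wk with all arrays, -0.21 without 1 wk replicate 2 and 5 wk replicate 1, and -0.03 when 1 wk replicate 4, unequal in the other direction, was left out as well. The median of the 48 members at 1 wk was 0.04 with all arrays, 0.0032 without the 2 and 0.03 without the 3.

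Spots of different clones of a gene did not give the same ratio on these arrays. On 1 wk replicate 2 the 3 FGA spots had 0.25, 1.70 and 1.93, and the 4 A2M spots had 2.16, 1.18, 0.61 and 2.39. The 2 PLG spots had 2.32 and 1.15, the 2 C3 spots 0.51 and 2.00 and the 2 F2 spots 1.11 and 0.06. FGB rested on 1 spot. All of these spots were above 0 on that array.

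A component that changed sign with the dyes was larger than the line effect for several members. It was fitted as a dye term, which is positive where ratios were higher with FL in 647. In the dye term 9 of the 48 members passed (limma, adjusted p under 0.05), against 33.6% of all features. C1QBP, C8A and KNG1 were above 0 there, and ANXA1, ANXA11, C4, F2RL1, F8 and VWF were below 0. The 2 spots of C4 differed in this. Spot 2 averaged -0.30 with FL in 647 and 0.50 with LL in 647, and spot 1 averaged 0.04 and -0.04. ANXA1, ANXA11, C8A, F8, KNG1 and VWF rested on 1 spot each. For these, a split of the gene and a split of that spot cannot be told apart.

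KNG1 was the clearest case. Its ratios averaged 0.42 ± 0.321 on arrays with FL in 647 and -0.56 ± 0.305 on arrays with LL in 647 (SD, n = 12 each). They were above 0 on 11 of the 12 arrays with FL in 647, and on 0 of the 12 with LL in 647. The lowest array with FL in 647 had -0.09 and the highest with LL in 647 had -0.16. How many of all features also separated by orientation was not counted, and 33.6% of them passed in the dye term. The dye term was 0.57 (SE 0.0599, adjusted p = 1.21e-06 in limma).

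Below 0, ANXA1 averaged -0.50 ± 0.57 with FL in 647 and 0.31 ± 0.415 with LL in 647, with a dye term of -0.45 (adjusted p = 0.000348 in limma). F8 averaged -0.54 ± 0.705 with FL in 647 and 0.20 ± 0.413 with LL in 647, with a dye term of -0.45 (adjusted p = 0.00138 in limma). VWF averaged -0.24 ± 0.335 with FL in 647 and 0.09 ± 0.253 with LL in 647, and its dye term was -0.20 (adjusted p = 0.00175 in limma). The orientations overlapped for all 3 genes.

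**Figure D3:**
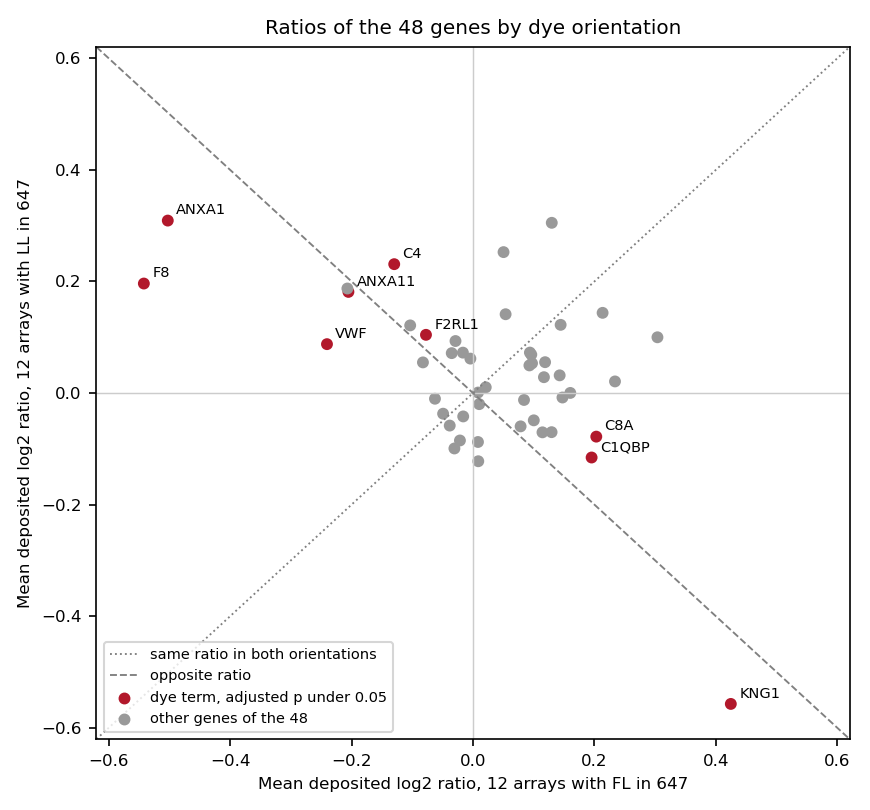
Mean deposited log2 ratio of each of the 48 genes on the 12 arrays with FL in 647 (x axis) against the 12 arrays with LL in 647 (y axis). The 9 genes with a dye term past the threshold are red and named: KNG1 lies at 0.42 and -0.56, ANXA1 at -0.50 and 0.31, F8 at -0.54 and 0.20.

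If the deposited ratios are 647 over 555, the same component is the line effect, and a dye effect and a line effect cannot be told apart without knowing which. Refitted with the arrays of LL in 647 turned in sign, 10 of the 48 members passed in the mean over ages, against 37.9% of all features. KNG1, C8A, C1QBP and F2 were then above 0 (higher in FL), and ANXA1, F8, ANXA11, C4, VWF and F2RL1 below 0 (lower in FL). The turned means were 0.51 for KNG1 (SE 0.0452, adjusted p = 9.3e-08 in limma), -0.41 for ANXA1 (SE 0.0781, adjusted p = 0.0004) and -0.40 for F8 (SE 0.0855, adjusted p = 0.0012). VWF had -0.15 (SE 0.0596, adjusted p = 0.0455 in limma). KNG1, ANXA1, F8 and VWF rested on 1 spot each.

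By age, the turned value of KNG1 was 0.17, 0.68, 0.47, 0.33, 0.66 and 0.76 from 1 to 11 wk, and passed the test at each age but 1 wk. ANXA1 passed at 9 wk (-0.73) and 11 wk (-0.61), F8 at 3 wk (-1.15) and ANXA11 at 5 wk (-0.55) and 11 wk (-0.31). In all, 0 members passed at 1 wk (3.41% of all features), 2 at 3 wk (4.58%), 4 at 5 wk (6.64%), 2 at 9 wk (6.28%) and 3 at 11 wk (13.1%). At 7 wk 8 members passed, against 17.9% of all features: C1QA, C2, C8A, C8G, F2, KNG1 and PROC above 0 and C4BPG below 0. C4BPG is an average over 2 spots. As deposited, its spot 1 had 1.02, -0.59, 0.78 and -0.92 at 7 wk, and its spot 2 had 0.01, 0.02, 0.01 and 0.03. For 2 members, C2 and C1R, the turned line effect differed between ages (limma, adjusted p = 0.0262 and 0.0422), against 5.04% of all features. C2 had -0.37 at 5 wk and 0.33 at 7 wk. Both genes are averages over 2 spots that differed at 5 wk. As deposited, C2 had 0.26, -0.17, -0.01 and -0.04 on spot 1 and 0.26, -1.04, 0.73 and -0.63 on spot 2. C1R had 0.80, -0.19, -0.24 and 0.87 on spot 1 and -0.86, 0.65, -0.64 and -0.20 on spot 2. At 7 wk both spots of C2 were higher with FL in 647.

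On the ratios as deposited, no member was called at any single age. At adjusted p under 0.05 the share called among all features was 0.0% at 1, 5 and 9 wk, 1.22% at 3 wk, 0.00665% at 7 wk and 0.0266% at 11 wk. At an unadjusted p under 0.05, the members past the threshold were 1 at 1 wk (2.2% of all features), 5 at 3 wk (11.9%), 1 at 5 wk (2.16%), 1 at 7 wk (4.2%), 2 at 9 wk (6.65%) and 2 at 11 wk (6.34%). Member medians were 0.04 at 1 wk, 0.01 at 3 wk, 0.03 at 5 wk, 0.0019 at 7 wk, 0.03 at 9 wk and 0.0087 at 11 wk. Without array weights 0 features were called at 3 wk, and 0 without 3 wk replicate 4.

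At 1 wk, C7, a component of the membrane attack complex, gave 0.20, -0.16, -1.10 and -0.48, with a fitted value of -0.36 (SE 0.166, adjusted p = 0.999 in limma). SERPIND1 gave 0.15, 1.24, 0.0013 and -0.07, high on a single array, and its fitted 0.31 became 0.11 without that array and 0.50 without replicate 1. The 3 wk arrays gave F8 0.36, -2.24, 0.55 and -1.30, both strongly negative values lying on arrays with FL in 647, and a fitted value of -0.67 (SE 0.213, adjusted p = 0.138 in limma). Without 3 wk replicate 3 it was -1.02 with an adjusted p of 0.0486 in limma, and without replicate 2 it was -0.41 with 0.592.

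All 6 annexins had fitted values above 0 at 3 wk, with a median of 0.20, and 48.8% of all features were above 0. At 11 wk 2 of the 6 annexins were above 0, with a median of -0.08. At 3 wk ANXA6 gave 0.09, 0.36, 0.22 and 0.17, above 0 on every array, and a fitted 0.21 (SE 0.0844, adjusted p = 0.287 in limma). Its spot 1 gave -0.05, 0.27, -0.21 and 0.27 there, and its spot 2 gave 0.24, 0.46, 0.65 and 0.08. C4A was also above 0 on all 4 arrays at 3 wk, at 0.37, 0.86, 0.62 and 0.55. A gene above 0 on all 4 arrays of an age is above 0 in both dye orientations. This holds for the average over its spots, and single spots can still split by the dyes. At 3 wk 6 of the 48 met this (ANXA2, ANXA5, ANXA6, C4A, F13A1 and F9), against 6.65% of all features. At 9 wk 6 did (ANXA5, ANXA6, F13A1, FGG, PLG and SERPINE2), against 6.68%. At 1 wk 3 did (3.69% of all features), at 5 wk 1 (3.28%), at 7 wk 2 (2.25%) and at 11 wk 2 (4.21%). No single spot of ANXA5, ANXA6 or PLG was above 0 on all 4 arrays at 9 wk. The same held for F13A1 at 3 wk and for ANXA7, 1 of the 3 at 1 wk. Below 0 on all 4 arrays were 0 members at 1 wk (3.93% of all features), C4BPG and F7 at 3 wk (5.54%), F7 at 5 wk (3.4%), ANXA2, C4BPS and SERPINI1 at 7 wk (3.23%), A2M and KLKB1 at 9 wk (4.53%), and C4BPM and CPB2 at 11 wk (3.84%). No single spot of C4BPG at 3 wk or of SERPINI1 at 7 wk was below 0 on all 4 arrays.

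At 5 wk, VWF gave -0.13, 0.0087, -0.37 and -1.02, low on 3 of 4 arrays, with a fitted value of -0.48 (SE 0.128). Its adjusted p was 1.0 in limma. SERPIND1 at this age gave 0.62, 0.06, 0.11 and 0.22, all above 0, and a fitted 0.25 (SE 0.162), which became 0.10 without replicate 1.

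At 7 wk, C8G, the lipocalin chain of complement component C8, gave -0.22, -0.16, -1.05 and 0.16, with a fitted -0.27 (SE 0.127, adjusted p = 1.0 in limma). It was -0.068 without replicate 3, -0.17 without replicate 1, -0.71 without replicate 2 and -0.69 without replicate 4. SERPIND1 gave -0.53, 0.80, -0.05 and 0.22 at 7 wk, low with LL in 647 and high with FL in 647. The fitted 0.29 was -0.087 without replicate 2 and 0.029 without replicate 4, and 0.50 and 0.51 without replicates 1 and 3. At 11 wk, ANXA1 gave -0.04, -0.74, 0.39 and -1.27, with a fitted -0.34 (SE 0.145, adjusted p = 0.711 in limma). SERPINE2 gave 0.86, -0.0030, 0.23 and 0.42, 3 of 4 above 0, and a fitted 0.27 (SE 0.119, adjusted p = 0.726 in limma).

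**Figure D4:**
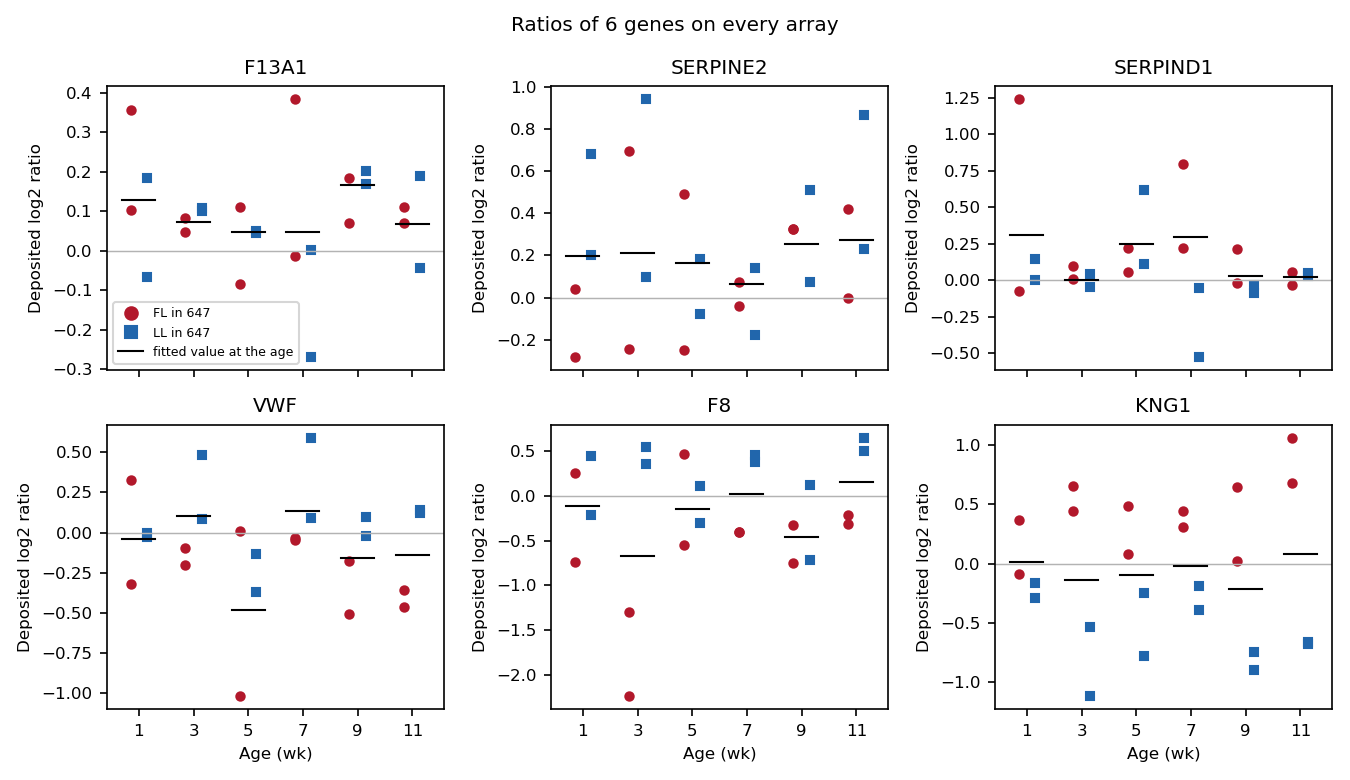
Deposited log2 ratio of 6 genes on every array by age, with FL in 647 as circles and LL in 647 as squares, and the fitted value at each age as a bar. KNG1 splits by dye orientation, and F8 has its lowest value, -2.24, at 3 wk with FL in 647.

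The line effect was also tested for change over the 6 ages. No member was called, and 0.0% of all features were. At an unadjusted p under 0.05 there was 1 member, VWF, against 2.58% of all features, followed by F8 and C4BPS, a C4b-binding protein gene with ratios from -0.31 to 0.34 (median 0.02). VWF had fitted values of -0.04, 0.10, -0.48, 0.13, -0.16 and -0.14 from 1 to 11 wk.

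Other genes of hemostasis, taken from a list of 57 with cofactor carriers, vitamin K enzymes, thrombocyte receptors and complement regulators, were measured for 21. In the mean over ages 11 of 21 were above 0, with a median of 0.00046, and none was called or had an unadjusted p under 0.05. The highest was CFI, the protease that inactivates C3b and C4b, at 0.10 (SE 0.0778), and the lowest S100A10, the partner of ANXA2, at -0.09 (SE 0.0548). In the dye term 7 of the 21 passed, against 33.6% of all features.

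Cell type markers beside the members gave no called gene in the mean over ages. Markers of endothelium, the main cell source of VWF, had a median of 0.02 over 12 of 14 genes measured, and macrophage markers 0.03 over 5 of 12. Adipocyte markers had 0.01 over 10 of 12, mesothelial markers -0.00081 over 5 of 11 and erythrocyte markers 0.05 over 3 of 9. None of 10 thrombocyte markers was measured. Adipocyte markers alternated with the dyes at 9 wk, with medians of -0.52 and -0.75 with FL in 647 and 0.29 and 0.35 with LL in 647.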

How the data were processed

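Abdominal fat RNA of FL and LL males was compared on 24 spotted cDNA arrays, 4 per age. The deposited values are log2 ratios, 1 per spot and array. Software listed in the submitters' processing notes was R 2.11.1 with limma 3.4.5. The numerator, whether dye-swapped ratios were turned, background correction and normalization are not given in the sources used here. A log base of 2 was assumed, as limma writes it. No intensities were used, so signal over background is unknown and the number of arrays limits the precision.

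Gene names came from the platform annotation after exchanging row and column in the spot ID: over 4745 pairs of spots of one gene the mean within-array rank correlation was 0.0553 exchanged (above 0 on 24 of 24 arrays) and 0.00509 as given (14 of 24). Of 19200 spots 10601 were named, and 10455 had their gene identifier in the RefSeq table of GRCg7b, used for names and gene order only. Spots of 2 control clones (123 spots) were left out and spots of one symbol averaged, giving 15027 features.

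A linear model with 6 age-specific line effects and a dye term was fitted to all arrays with array weights (limma 3.58.1, R 4.3.3), and p-values were adjusted by Benjamini-Hochberg over all features. Contrasts were the mean over ages, each age, the differences between ages and the dye term. Weights ran from 0.407 to 3.48. Simulated on 14952 features, the mean over ages recovered 98 of 100 changes of 0.5 and 98 of 100 changes of 1, with 10 calls among unchanged features. The simulated noise was normally distributed and independent between features, and each change was the same at every age. Excursions on a single array, such as the 4.18 of FGB, were not simulated, so recovery for genes that have them is unknown. Changes under 0.5 were not simulated, so recovery at the sizes of the member means is unknown. Each replicate is another pair of birds, and the error term holds bird and array variation alike. Members given by their lowest, median and highest array were those called in any comparison, the 8 with the smallest p in the mean over ages, the 2 at each age, the 3 in the test between ages, and a list by role. The members and lists were chosen with earlier results of these data known. Alternatives were no array weights, no dye term, the replicate number as a block in place of the dye term, ratios turned by the dyes, spots named as given, spots kept single, arrays centred and scaled, robust variance moderation, without 1 wk replicate 2 and 5 wk replicate 1, and without each array in turn. Leaving out 1 wk replicate 4 together with that pair was added after seeing the data.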

Additional observations from a re-analysis of the deposited data

Results flagged for a closer look

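Of 294 sets of 4 arrays (a member, or the median over members, at one age), 15 had 1 array far from the other 3 by Dixon's gap test. Chance gives about 1 in 20. On 1 wk replicate 2 these were FGA (1.29), SERPIND1 (1.24), PROC (0.66) and F2 (0.59), and the other 3 arrays of each lay between -0.18 and 0.15. FGB had 2.04 on 5 wk replicate 1, where the other 3 arrays lay between -0.03 and 0.10, and -0.12 on 9 wk replicate 2. At 1 wk, ANXA1 had -0.65 on replicate 1, and replicate 4 had 0.51 for ANXA7 and -0.073 for KLKB1. At 7 wk, replicate 1 had -0.19 for C4BPM and -0.30 for SERPINI1, and replicate 4 had 0.40 for F10 and 0.069 for SERPINF1. At 9 wk, C8G had 0.52 on replicate 4, and the median over all members was -0.034 on replicate 3, where the other 3 arrays lay between 0.06 and 0.07.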

How the results depend on the processing

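No member was called for a line effect in the mean over ages under any alternative except ratios turned by the dyes. Signs in the mean over ages turned for 21 of 48 members with ratios turned, 20 with spots named as given, 16 over the alternatives that left out 1 array, 9 with spots kept single, 9 without 1 wk replicate 2 and 5 wk replicate 1 (the 2 arrays), 11 without these and 1 wk replicate 4 (the 3 arrays, chosen after seeing the data), 4 without weights, 4 without the dye term, 1 with the replicate block, 1 with arrays centred and scaled and 0 with robust moderation. With ratios turned, ANXA11 (-0.21), C4 (-0.17), F2RL1 (-0.094), KNG1 (0.51) and C8G at 7 wk (0.31) were called with the opposite sign, and the cause was not tested.

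Called features in the mean over ages (2) were 0 without array weights, 1 without the dye term, 0 with the replicate block in place of the dye term, 5693 with ratios turned, 8 with single spots and 0 to 170 without 1 array, the highest without 5 wk replicate 2. At 1 wk (0) they were 513 turned and 0 to 1 without 1 array. At 3 wk (183) they were 0 without weights, 5 without the dye term, 688 turned, 287 with single spots, 3 with arrays centred and scaled, 293 without the 2 arrays, 411 without the 3 arrays and 0 to 264 without 1 array. At 5 wk (0) they were 998 turned and 0 to 4 without 1 array. At 7 wk (1) they were 0 without the dye term, with the block, with single spots and without the 2 or the 3 arrays, 2690 turned and 0 to 430 without 1 array. At 9 wk (0) they were 944 turned. At 11 wk (4) they were 0 without weights, without the dye term and with spots as given, 1 with the block, with single spots and with centred arrays, 1967 turned, 7 without the 3 arrays and 0 to 10 without 1 array. For the change with age (0) they were 757 turned. The member median at 1 wk (0.04) was 0.0032 without the 2 arrays, 0.03 without the 3 arrays and ran from 0.0033 to 0.13 without 1 array. The cause of these changes was not tested.

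The replicate number marks different birds, so the block shares only a number and the dye orientation. The numerator, the turning of ratios and the lack of intensities limit every direction given. With 4 arrays per age, the median SE at an age was between 0.071 and 0.12 over all features.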
